A study of Canis lupus familiaris with 4 samples.

Results

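Receptor tyrosine kinases are membrane proteins that bind a growth factor or a matrix protein outside the cell, pair with a second receptor and phosphorylate each other, which recruits adaptors and switches on the RAS-ERK and PI3K-AKT relays. Several of them are amplified, mutated or overexpressed in human glioblastoma (GBM), and EGFR, PDGFRA and MET are the best known. The 10 receptors described here were EGFR and ERBB2 of the epidermal growth factor (EGF) receptor family, the platelet-derived growth factor (PDGF) receptors PDGFRA and PDGFRB, the hepatocyte growth factor receptor MET, the fibroblast growth factor (FGF) receptor FGFR1, the neurotrophin receptor NTRK2 (TrkB), the TAM receptor AXL, the insulin-like growth factor receptor IGF1R and the collagen receptor DDR2. They were chosen by gene symbol, and each probe set, the group of probes that reads 1 transcript region, was kept if the array annotation gave it a single symbol. This gave 20 of 42924 probe sets and 10 of 15115 genes.

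The samples were 4 canine GBM lines grown in serum-containing medium, with 1 Affymetrix canine array per line and no replicates. J3T-1, with high annexin A2 (ANXA2), and J3T-2, with low ANXA2, derive from a common parental canine line. Silencing of ANXA2 in J3T-1 gave J3T-1shA, and its overexpression in J3T-2 gave J3T-2A. Each derived line was set against its unmodified parent, and no array of a line carrying a control vector was analysed here. With 1 array per line there is no test and no p-value, the number of arrays limits the precision, and fewer cells of a type and less RNA per cell cannot be told apart. The signals were linear MAS 5.0 intensities, scaled by the authors to one trimmed mean per array (495.8 to 496.0), and 35.2% to 35.9% of all probe sets reached 250, the signal from which a probe set was taken as measured. A pair of arrays was compared where the brighter reached 250, and a ratio over 2-fold was called different. Between 2 probe sets of the same gene, the log2 ratios of a pair of arrays differed with a standard deviation (SD) of 0.29 to 0.40, and of 0.41 to 0.55 where the second probe set had signals of 250 to 500. This is the only error that the data give, and it covers the measurement of 1 RNA sample and not the spread between cultures. The brightest ANXA2 probe set had signals of 28656 to 30103 on all 4 arrays. A second bright one had 24127.5 in J3T-1, 25725 in J3T-1shA, 30311 in J3T-2 and 35651 in J3T-2A. It was thus lowest in J3T-1 and highest in J3T-2A, both of which the study describes as high in ANXA2. Neither probe set put J3T-1 above J3T-1shA or J3T-2. ANXA2 did not check the labels, so each array is called by its label and directions are between arrays as labelled. Of the markers of glial and neural stem cells, SOX2, VIM and SLC1A3 reached 250 on all arrays, NES on the J3T-1shA array, and GFAP, S100B and AQP4 on none.

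Of the 10 receptors, 6 had a measured probe set, and these fell into 4 that varied between the lines and 2 that stayed within 2-fold. MET, NTRK2, AXL and PDGFRA differed by more than 2-fold in at least 1 of the 6 pairs of arrays, whereas IGF1R and DDR2 were within 2-fold in all 6. EGFR, ERBB2, PDGFRB and FGFR1 stayed under 250 on every array, which shows that these probe sets were dim and not that the receptors were absent. In all, 8 of 20 probe sets reached 250 on any array and 4 did so on all 4 arrays. By the brightest probe set of each gene, 5 receptors reached 250 on the J3T-1 array, 4 on the J3T-1shA array, and all 6 on both the J3T-2 and the J3T-2A array.

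**Figure D1:**
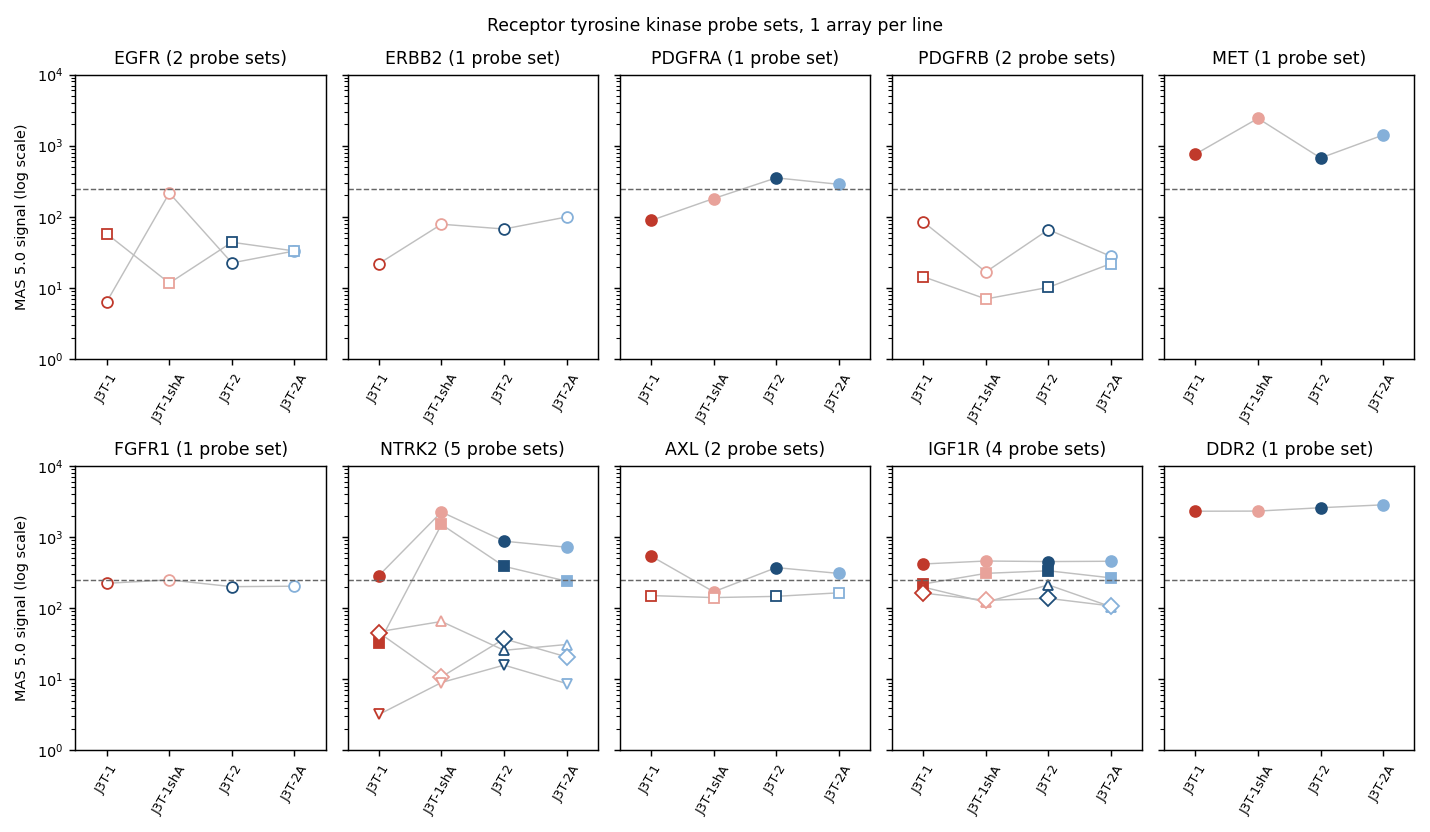
MAS 5.0 signal (log scale) of every probe set of the 10 receptors on the 4 arrays, 1 array per line; each grey line joins the values of 1 probe set, filled points belong to probe sets that reached 250 (dashed line) on any array and open points to those that did not. MET and NTRK2 peak on the J3T-1shA array, AXL is lowest there, and DDR2 and the brightest IGF1R probe set are nearly level.

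MET is the receptor for hepatocyte growth factor (HGF) and drives motility and invasion of epithelial and glial tumour cells. The signal of its single probe set was 760.1 on the J3T-1 array, 2421 on the J3T-1shA array, 671.3 on the J3T-2 array and 1410.5 on the J3T-2A array. It was thus higher in the derived line than in its parent in both pairs. The study describes ANXA2 as silenced in 1 derived line and overexpressed in the other, which the ANXA2 signals on these arrays did not check. The log2 ratio was 1.07 for J3T-2A over J3T-2 (2.10-fold higher) and -1.67 for J3T-1 over J3T-1shA (3.18-fold lower). J3T-1 and J3T-2 differed by 0.18 on the log2 scale, less than the SD between probe sets (0.37), whereas the other steps in the order (0.78 from J3T-1shA to J3T-2A and 0.89 from J3T-2A to J3T-1) were larger than theirs (0.33 and 0.36). MET was 3.61-fold higher on the J3T-1shA array than on the J3T-2 array. Its remaining ratios, 1.86-fold higher for J3T-2A over J3T-1 and 1.72-fold lower for J3T-2A over J3T-1shA, were under the threshold. With a pseudocount of 80 added to both signals, the ratio for J3T-2A over J3T-2 was 0.99, just under the threshold.

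NTRK2 encodes TrkB, the receptor of brain-derived neurotrophic factor and neurotrophin-4, which in glia is known mainly as a truncated form without the kinase domain. Its brightest probe set had signals of 287.3 on the J3T-1 array, 2248 on the J3T-1shA array, 873.4 on the J3T-2 array and 717.6 on the J3T-2A array. A second probe set had 32.1, 1500 (1499.8), 386.7 and 239.0 in the same order of arrays, so both put J3T-1shA first and J3T-1 last. J3T-1 over J3T-1shA gave a log2 ratio of -2.97 by the brightest probe set, the 45th lowest of 6944 measured genes, and -5.55 by the second, whose signal on the J3T-1 array lay under 250. NTRK2 was also lower for J3T-1 over J3T-2 (-1.60 and -3.59 by the 2 probe sets) and higher for J3T-1shA over J3T-2 (1.36 and 1.96). J3T-2A and J3T-2 differed by -0.28 in the brightest, within the SD between probe sets (0.29). In the second they differed by -0.69, within 2-fold but more than the SD between dim probe sets (0.41). The other 3 NTRK2 probe sets had signals of 3.2 to 64.9 and stayed under 250 throughout. Their log2 ratios for J3T-1 over J3T-1shA did not share 1 direction (-0.48, 2.07 and -1.49) and were not measured. The median over all 5 was the -1.49 of the dimmest probe set, with signals of 3.2 and 9.0, so it does not bear on the difference. Which transcript forms each probe set reads was not tested.

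AXL, a receptor of the TAM family that is activated by the vitamin K-dependent protein GAS6, ran the other way. Its brighter probe set had signals of 538.8 on the J3T-1 array, 169.6 on the J3T-1shA array, 371.1 on the J3T-2 array and 307.5 on the J3T-2A array. It was 3.18-fold higher for J3T-1 over J3T-1shA (log2 ratio 1.67) and 2.19-fold lower for J3T-1shA over J3T-2, and J3T-2A over J3T-2 gave -0.27, within the SD between dim probe sets (0.41). The other AXL probe set was nearly level, at 150.1, 140.6, 146.3 and 164.1, but under 250 on every array. The difference in AXL therefore rested on 1 probe set, and with the median of both, the log2 ratio for J3T-1 over J3T-1shA was 0.88 and that for J3T-1shA over J3T-2 was -0.59, both under the threshold. The latter was also lost with a pseudocount of 80 (-0.85).

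PDGFRA, which marks oligodendrocyte progenitors and proneural GBM in humans, separated the J3T-2 lines from J3T-1. The signal of its single probe set was 88.9 on the J3T-1 array, 180.7 on the J3T-1shA array, 352.7 on the J3T-2 array and 286.5 on the J3T-2A array. Both J3T-2 lines reached 250 and neither J3T-1 line did. J3T-1 over J3T-2 gave a log2 ratio of -1.99 (3.97-fold lower) and J3T-2A over J3T-1 gave 1.69 (3.22-fold higher). The step between J3T-2 and J3T-2A (0.30) was within the SD between dim probe sets (0.41). J3T-1shA was within 2-fold of both J3T-2 lines, with J3T-1shA over J3T-2 1.95-fold lower and J3T-2A over J3T-1shA 1.59-fold higher. J3T-1 over J3T-1shA was not measured, since both signals were under 250. With signals under 160 set to 160, the ratio for J3T-1 over J3T-2 was -1.14 and that for J3T-2A over J3T-1 was 0.84, the latter under the threshold. PDGFRB, the receptor of pericytes and fibroblasts, had signals of 7.0 to 84.9 by its 2 probe sets.

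IGF1R, which binds insulin-like growth factors, had signals of 417.2 and 459.3 on the arrays of J3T-1 and J3T-1shA, and of 451.2 and 455.6 on those of J3T-2 and J3T-2A, by its brightest probe set. A second measured probe set had 217.9, 308.0, 334.8 and 266.3 in that order of arrays, and its ratios were also within 2-fold in all 6 pairs. The other 2 IGF1R probe sets stayed under 250, at 104.6 to 211.9. DDR2, which is activated by fibrillar collagen and is common in mesenchymal cells, had signals of 2301.5, 2312, 2576 and 2831 in that order of arrays. For DDR2 and for the brightest IGF1R probe set, each step between neighbours in the order of the arrays was within the SD between probe sets. These signals were well under the highest on the arrays (44435 to 46646).

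Of the receptors under 250, FGFR1 came closest, at 223.2 in J3T-1, 249.3 in J3T-1shA, 200.2 in J3T-2 and 203.3 in J3T-2A. Its signal on the J3T-1shA array was just outside the limit, and the measured value closest to the limit from inside was 266.3, of the second IGF1R probe set on the J3T-2A array. The FGFR1 name rests on the array annotation alone, since its gene identifier was not in the RefSeq gene table. EGFR, the receptor most often amplified in human GBM, had 2 dim probe sets that disagreed. One had 216.1 on the J3T-1shA array and 6.4 to 33.1 on the others, whereas the other was lowest on that array, at 11.7 against 33.1 to 57.7. No direction was therefore read for EGFR. ERBB2, the ligand-less partner of the EGF receptor family, had signals of 22.0 to 99.5.

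**Figure D2:**
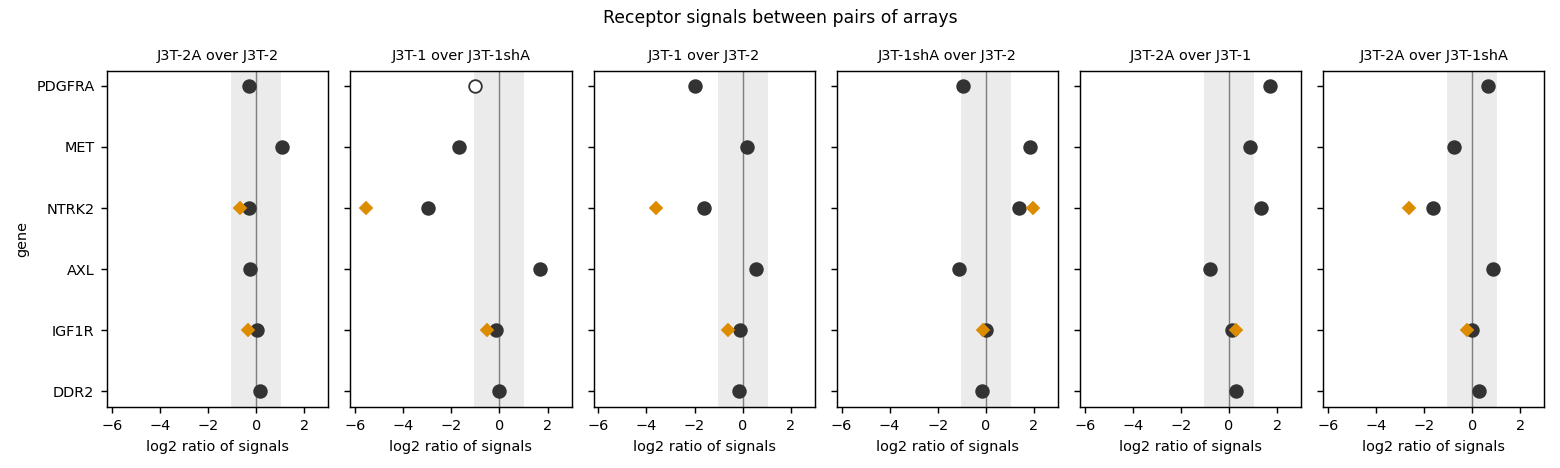
Log2 ratio of signals (x axis) for the 6 receptors with a measured probe set in each of the 6 pairs of arrays. Circles are the probe set that stands for the gene, open where both arrays were under 250, orange diamonds are second probe sets that reached 250, and the grey band is the range within 2-fold. NTRK2 lies at -2.97 and -5.55 for J3T-1 over J3T-1shA, and IGF1R and DDR2 lie inside the band in every pair.

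Across the 6 pairs, 12 of 35 measured receptor ratios were over 2-fold, 5 of them of NTRK2, 3 of MET and 2 each of AXL and PDGFRA. Pairs with the J3T-1 array or with the J3T-1shA array held 7 each, those with J3T-2 held 6 and those with J3T-2A held 4. The pairs share arrays, so these counts are not independent. For J3T-2A over J3T-2, 1 of 6 measured receptors was higher (MET) and 0 were lower, against 1.69% higher and 2.1% lower of 6860 measured genes, each by its brightest probe set. For J3T-1 over J3T-1shA, 1 of 5 was higher (AXL) and 2 were lower (MET and NTRK2), against 3.8% and 4.26% of 6944 genes. For J3T-1 over J3T-2, 0 of 6 were higher and 2 were lower (PDGFRA and NTRK2), against 2.94% and 4.05% of 6967 genes. For J3T-1shA over J3T-2, 2 of 6 were higher (MET and NTRK2) and 1 was lower (AXL), against 4.39% and 5.31% of 7012 genes. For J3T-2A over J3T-1, 2 of 6 were higher (PDGFRA and NTRK2) and 0 were lower, against 2.72% and 1.94% of 6850 genes. For J3T-2A over J3T-1shA, 0 of 6 were higher and 1 was lower (NTRK2), against 3.11% and 2.66% of 6846 genes. With 5 or 6 measured receptors, a single call already lies above the share of all genes. The counts, of at most 2 genes, therefore do not show whether receptors varied more than other genes. The median log2 ratio of the measured receptors was between -0.14 and 0.60 over the 6 pairs, and that of all measured genes between -0.05 and 0.03.

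The study looked for genes over 2-fold higher both in J3T-2A over J3T-2 and in J3T-1 over J3T-1shA. At the limit of 250, 0 of the 5 receptors measured in both pairs met this, against 12 of 6563 genes (0.183%), and 0 were lower in both (0.0609% of genes). Without the limit, the dimmer PDGFRB probe set met it, with 22.0 on the J3T-2A array against 10.2 on the J3T-2 array and 14.4 on the J3T-1 array against 7.0 on the J3T-1shA array, and its other probe set did not. MET was higher in the first and lower in the second, a pattern shared by 46 genes (0.701%), and 0 of the 5 receptors ran the other way, against 0.35% of genes.

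The ligands of these receptors were then examined, as 37 genes of which 36 were on the array with a single symbol and 10 reached 250. HGF, the ligand of MET, had signals of 218.0 in J3T-1, 27.5 in J3T-1shA, 1163 in J3T-2 and 297.8 in J3T-2A, the order in which the values of other genes follow. HGF was lowest where MET was highest (J3T-1shA) and highest where MET was lowest (J3T-2). Between the remaining arrays the order was the same for both, higher in J3T-2A than in J3T-1. HGF reached 250 only in J3T-2 and J3T-2A. HGF had a log2 ratio of -1.97 for J3T-2A over J3T-2, where MET was higher, and for J3T-1 over J3T-1shA both HGF signals were under 250. PDGFC, a PDGF that activates PDGFRA, had 533.3, 251.4, 611.6 and 585.3, so it was lowest on the J3T-1shA array and not, as PDGFRA was, on the J3T-1 array. PDGFA, PDGFB and PDGFD stayed under 250.

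Of the fibrillar collagens that bind DDR2, COL1A1, COL1A2 and COL5A1 were measured on all arrays, while DDR2 itself was nearly level. COL1A1 had signals of 2014 on the J3T-1 array, 16842 on the J3T-1shA array, 3799 on the J3T-2 array and 11899 on the J3T-2A array. COL5A1 had 2450.3, 8772, 3952 and 6623 and ranked the 4 arrays as COL1A1 did. Like MET, both were higher in each derived line than in its parent, and COL5A1 was within 2-fold for J3T-2A over J3T-2. The brightest COL1A2 probe set had 21684 to 31252.5, near the highest signals of the arrays, and was within 2-fold in all 6 pairs. Its 3 further probe sets were higher in each derived line than in its parent, with log2 ratios of 0.69 to 1.13 for J3T-2A over J3T-2 (1 of 3 over 2-fold) and of -1.26 to -0.73 for J3T-1 over J3T-1shA (2 of 3 over 2-fold).

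All 3 neurotrophins that activate TrkB or its relatives, BDNF, NTF3 and NTF4, had signals of 2.4 to 80.9, both TAM ligands, GAS6 and PROS1, had 71.3 to 215.6, and IGF1 and IGF2 had 9.6 to 96.7. Ligands of the EGF family were measured although EGFR was not. TGFA, an EGFR ligand, had signals of 409.8 to 539.9, and NRG1, which binds ERBB3 and ERBB4 and thereby engages ERBB2, had 565.5 to 1075, both within 2-fold in all 6 pairs. EREG, another EGFR ligand, had 186.7, 127.2, 488.3 and 297.6 and was 2.62-fold lower for J3T-1 over J3T-2, 3.84-fold lower for J3T-1shA over J3T-2 and 2.34-fold higher for J3T-2A over J3T-1shA. FGF2 had 640.4, 372.4, 1022 and 851.7, and FGF7 reached 250 only on the J3T-1shA array (273.9, against 29.9 on the J3T-2A array). Over all measured ligands, 1 was higher (COL1A1) and 1 lower (HGF) of 9 for J3T-2A over J3T-2, and 1 was higher (PDGFC) and 2 lower (COL1A1 and COL5A1) of 8 for J3T-1 over J3T-1shA. Of 9 ligands, 0 were higher and 2 lower (HGF and EREG) for J3T-1 over J3T-2, and 2 were higher (COL1A1 and COL5A1) and 0 lower for J3T-2A over J3T-1. The most calls were in the other pairs with J3T-1shA, in which HGF, EREG, PDGFC and FGF2 were lower and COL1A1 and COL5A1 higher for J3T-1shA over J3T-2 (of 10), and the same 4 growth factors were higher and FGF7 lower for J3T-2A over J3T-1shA (of 10). The shares of all genes called in these pairs are those given above for the receptors, at most 4.39% higher and 5.31% lower.

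**Figure D3:**
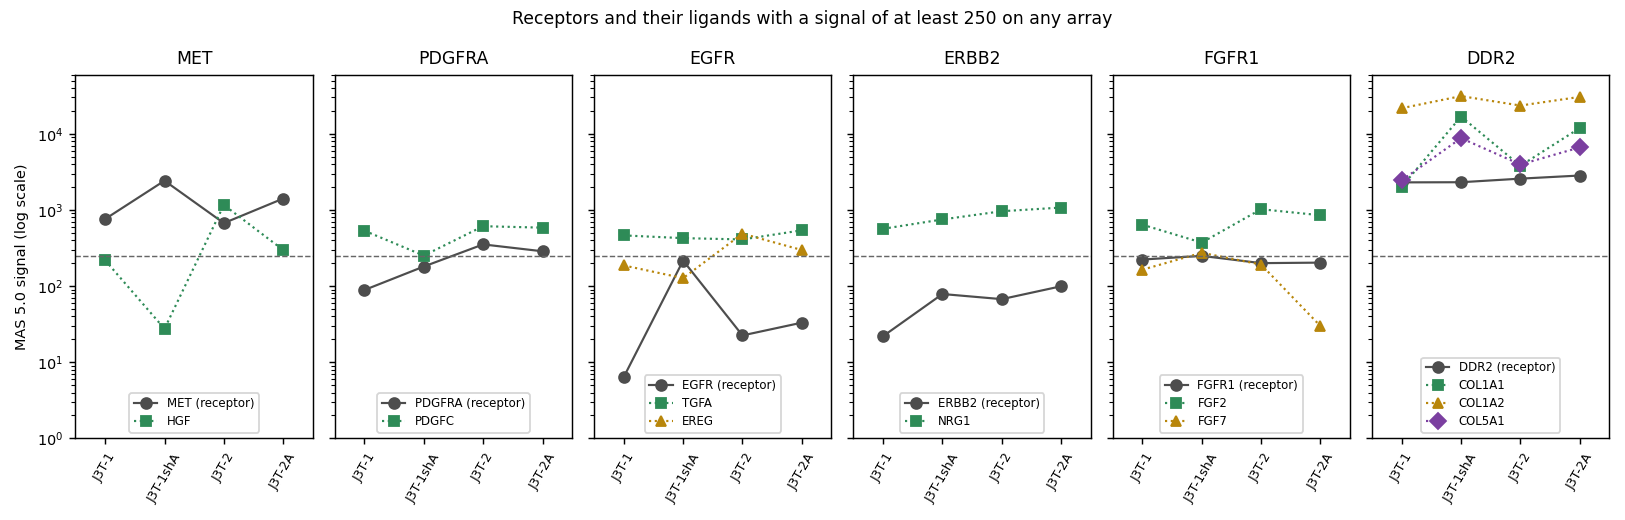
MAS 5.0 signal (log scale) of receptors (solid lines, dark circles) and of their ligands that reached 250 (dashed line) on any array (dotted lines), on the 4 arrays, each gene by its brightest probe set. HGF falls to 27.5 on the J3T-1shA array, where MET is at 2421, and DDR2 stays level while COL1A1 and COL5A1 rise and fall.

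Other receptor tyrosine kinases were examined beside the 10. Of 48 such genes, 44 were on the array with a single symbol and 7 reached 250. Of the 10 described here 6 did, and of all 15115 genes 7241 did. Both lists were chosen with earlier results of these data known, so nothing is read from the difference between them. FLT1, a receptor of vascular endothelial growth factor (VEGF), had signals of 1021 on the J3T-1 array, 110.1 on the J3T-1shA array, 1736 on the J3T-2 array and 1179.5 on the J3T-2A array. Its further probe sets that reached 250 also put J3T-1shA last. FGFR2 had 397.5, 1046, 445.8 and 833.3, so it was higher in both derived lines than in their parents, as MET was. It was 2.63-fold lower for J3T-1 over J3T-1shA and 1.87-fold higher for J3T-2A over J3T-2, and -0.59 and 0.67 on the log2 scale by its second probe set. TYRO3, a TAM receptor like AXL, had 432.5, 208.3, 415.0 and 260.1, and was lowest on the J3T-1shA array, as AXL was. EPHA2, an ephrin receptor, was highest on the J3T-1 array, at 654.6 against 288.7 to 323.1 on the others.

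RYK, a Wnt co-receptor without kinase activity, was 2.07-fold lower for J3T-1shA over J3T-2 by its brightest probe set but just within 2-fold by the other 2 (log2 ratios of -0.91 and -0.99), while DDR1 and PTK7 were within 2-fold in all 6 pairs. For J3T-1 over J3T-1shA, 3 of the 7 were higher (FLT1, TYRO3 and EPHA2) and 1 was lower (FGFR2), against 3.8% and 4.26% of all measured genes, with a median log2 ratio of 0.58. For J3T-2A over J3T-2, 0 were called, with a median of -0.51. For J3T-1shA over J3T-2, 1 was higher (FGFR2) and 2 were lower (FLT1 and RYK), and for J3T-2A over J3T-1, 1 was higher (FGFR2) and 1 lower (EPHA2). EPHA2 was higher for J3T-1 over J3T-2 and FLT1 for J3T-2A over J3T-1shA, 1 of 7 in each. The shares of all genes called in these pairs are those given above for the receptors, at most 4.39% higher and 5.31% lower. Counts over 7 genes do not show whether these receptors varied more or less than other genes.

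**Figure D4:**
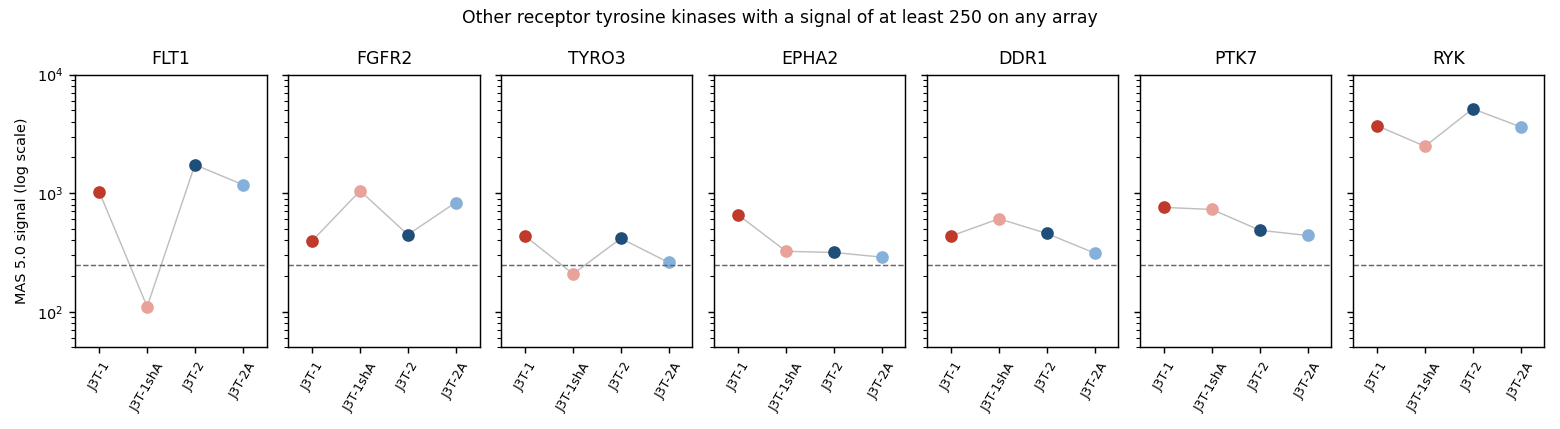
MAS 5.0 signal (log scale) of the 7 other receptor tyrosine kinases that reached 250 (dashed line) on any array, each by its brightest probe set, on the 4 arrays. FLT1 and TYRO3 are lowest and FGFR2 is highest on the J3T-1shA array.

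Measured genes that carry the signal inward, 17 to 19 per pair, were within 2-fold with 1 exception. Of all measured genes, 1.69% to 5.31% were called per pair and direction. The pairs share arrays, so it was not tested whether these genes varied less than others. Of 35 adaptor and relay genes, 28 were on the array and 19 reached 250, and 1 ratio in all 6 pairs was over 2-fold, that of PIK3R1, the regulatory subunit of PI3K (1027 on the J3T-1 array against 489.5 on the J3T-1shA array, 2.10-fold higher, where 3.8% of all genes were higher). Others came close to the threshold, with AKT1 at up to 1.98-fold, PLCG1 at up to 1.93-fold and PTPN11 at up to 1.88-fold. The adaptors GRB2 and SHC1 had signals of 2232 to 3311 and 4174 to 5634.

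Among inhibitors that feed back on the receptors, 18 of 21 were on the array and 11 reached 250. DUSP5, a phosphatase of nuclear ERK, had 529.6, 230.5, 538.6 and 629.4, lowest on the J3T-1shA array. ERRFI1, which inhibits EGFR family kinases, had a log2 ratio of 1.15 for J3T-2A over J3T-1shA and of 2.20 by its second probe set, which was also over 2-fold for J3T-1 over J3T-1shA (1.53), as it was for J3T-1shA over J3T-2 (-1.69). LRIG3, a membrane protein related to the receptor inhibitor LRIG1, reached 250 only on the J3T-1shA array (315.8), with 1.5 to 98.0 on the others, and PTPRJ, a receptor phosphatase, had 361.9 there and 74.8 to 221.1 on the others. For J3T-2A over J3T-2, 0 of 8 measured inhibitors were called, against 1.69% higher and 2.1% lower of all genes. With so few genes, nothing is read from this count.

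Of the sheddases and coreceptors, ADAM9, a membrane metalloproteinase, had 947.9 in J3T-1, 2012.5 in J3T-1shA, 1552 in J3T-2 and 1537.5 in J3T-2A. NRP1, a coreceptor of VEGF and semaphorins, had 575.9 on the J3T-2 array and 201.9 to 238.8 on the others by its brightest probe set. Its 3 further probe sets were also highest there, but gave log2 ratios of -0.95 to -0.62 for J3T-2A over J3T-2, within 2-fold, against -1.28 by the brightest. SDC1, a heparan sulfate proteoglycan, reached 250 only on the J3T-1shA array (480.8). NRP2, a coreceptor of the same family as NRP1, had 2379, 1672, 1621 and 1067.

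Markers of other cell types moved between the same arrays. Of 8 fibroblast and pericyte markers, which include PDGFRB and DDR2, 5 reached 250, and their summed signal was 20443 on the J3T-1 array, 52797 on the J3T-1shA array, 32907 on the J3T-2 array and 44981 on the J3T-2A array, with LUM, COL1A1 and, on the J3T-1shA array, ACTA2 (13625) as the brightest. The single markers did not share 1 order, since DCN was highest on the J3T-2 array (1292) and LUM on the J3T-2A array (29213), and ACTA2 was under 250 on both J3T-2 lines. Among the defining pericyte markers, RGS5 (11.5 to 30.2) and PDGFRB stayed under 250, and no marker was at 0 on all arrays. Of 5 endothelial markers 1 reached 250, PECAM1, at 773.2 on the J3T-2 array, where PDGFRA and HGF were highest, and the summed signal was 206.0 to 1007. The neuronal marker NEFL was also highest on that array (15463, against 2134 to 6292 on the others). So was the epithelial marker KRT8 (1076, against 288 to 562.6), the only 1 of 4 to reach 250. Of 5 neuronal markers 3 reached 250, but TUBB3 (552.7, against 725.4 to 958.8) and MAP2 (199.9, against 259.3 to 368.8) were lowest on the J3T-2 array. The oligodendrocyte marker CNP (1 of 3 on the array to reach 250) was lowest on the J3T-1 array, as PDGFRA was, at 396.9 against 977.2 to 1019. MBP and MOG, under 250 on all arrays, were lowest on the J3T-1shA array (139.7 and 71.1). Of 5 microglial markers C1QA alone reached 250, at 298 to 661.5, highest on the J3T-1 array. Their part in the receptor results was not tested.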

How the data were processed

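Total RNA of each line was labelled with a 3′ IVT kit and hybridised to 1 GeneChip Canine Genome 2.0 array. The deposited values are signal intensities on a linear scale, which the authors obtained with the MAS 5.0 algorithm (default parameters, each array analysed singly) and scaled globally. The deposited table held neither detection calls nor probe-level values, so it could not be said which probe sets lay above background. The trimmed means (2% left out at each end) were above the target that the methods give, and the limit of 250 was read on the deposited scale. No genome build is named, so no positions are given, and no sequences are shown.

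Of 42924 probe sets, 29254 had 1 gene symbol, 439 had several and 13231 had none or were not listed. None of those with several symbols named a receptor of the 10. For 19 of the 20 receptor probe sets the gene identifier carried the same symbol in the RefSeq gene table (assembly UU_Cfam_GSD_1.0). The probe set brightest on average over the 4 arrays stood for its gene. Log2 ratios were taken without further normalization, pseudocount or floor, and called over 2-fold where the brighter array reached 250. Counts of receptors are set beside those of all measured genes treated alike. The SD between probe sets was taken over 3695 to 3801 genes, as the difference between the ratios of the brightest and the second probe set. For likeness of pattern, the root mean square difference of log2 signals centred on each gene's mean over the 4 arrays was used, over 7241 genes. Named genes were the 10 receptors, list genes over 2-fold in any pair, and the 3 genes most like each varying receptor. Other list genes, named within 2-fold or under 250, were chosen after their values were seen. The members and gene lists were chosen with earlier results of these data known. The ratio and call functions were tested on simulated data. Python 3.11.15, numpy 2.4.6, pandas 2.3.3 and scipy 1.17.1 were used.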

Additional observations from a re-analysis of the deposited data

Results flagged for a closer look

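MET was higher in both derived lines than in their parents. The study describes J3T-2A as overexpressing ANXA2 and J3T-1shA as silenced for it. With the line described as higher in ANXA2 set over the other, the MET ratios therefore had opposite signs. The log2 ratio was 1.07 for J3T-2A over J3T-2 and -1.67 for J3T-1 over J3T-1shA. COL1A1, a collagen that DDR2 binds, did the same, with 1.65 and -3.06. With 1 array per line, neither difference between the pairs was tested.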

How the results depend on the processing

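No paired analysis was possible because each line has 1 array and no result comes from a test, and leaving out a replicate was not possible for the same reason. Other settings changed the value of the 35 measured receptor ratios in 123 cases, of which 111 moved by less than the SD between probe sets and 12 by more, and 0 called ratios changed sign. Under quantile normalization and median centring, none of the 12 counts of receptors higher or lower moved by over 1.5 times. For J3T-2A over J3T-2, a pseudocount of 80 left 0 receptors higher, and no filter on signal gave 1 lower. For J3T-1 over J3T-1shA, no filter gave 2 higher and 5 lower, and the median of the probe sets left 0 higher. For J3T-1 over J3T-2, 1 was lower at a signal limit of 500 and 4 with no filter. For J3T-1shA over J3T-2, 0 were lower with a pseudocount of 80, at a limit of 500 or with the median of the probe sets, and 2 with no filter or at a 1.5-fold threshold. For J3T-2A over J3T-1, 1 was higher with a floor of 160 or a limit of 500 and 4 with no filter, and 1 was lower with no filter or at 1.5-fold. For J3T-2A over J3T-1shA, 2 were higher at 1.5-fold, and 2 were lower with no filter or at 1.5-fold. Fewer probe sets pass at a limit of 500 and more with no filter, and the cause of the other changes was not tested.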

Other observations

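Among the 7241 genes that reached 250 on any array, those whose course over the 4 arrays was most like that of each varying receptor were found by the root mean square (RMS) difference of centred log2 signals. Nearest to MET were LOXL2, a collagen cross-linking enzyme (RMS difference 0.10), the membrane protein gene TM4SF1 (0.14) and DKK3, a secreted relative of Wnt antagonists (0.15). TM4SF1 reached 250 only on the J3T-1shA array (380.1), with 82.2 to 182.0 on the others. LOXL2 had signals of 3660.1 on the J3T-1 array, 10239 on the J3T-1shA array, 2838.5 on the J3T-2 array and 5635 on the J3T-2A array, so it too was higher in each derived line than in its parent.

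Nearest to NTRK2 were CHAC1, a glutathione-degrading enzyme of the stress response (0.20), TIMP3, a metalloproteinase inhibitor (0.28), and the glypican gene GPC4 (0.29). TIMP3 had signals of 194.1, 1826.5, 816.8 and 400.5 in the same order of arrays. Nearest to AXL were NIBAN2 (0.06), CCDC181 (0.07) and DNAI4 (0.07). Nearest to PDGFRA were INHBA, a subunit of activins (0.09), the metalloproteinase gene MMP19 (0.09) and RNF149 (0.10). MMP19 had signals of 239.2, 408.4, 888.9 and 691.7. With 4 arrays such likeness is a description of these arrays only.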
